A study of Mus musculus with 6 samples.

Results

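The 10 genes described here are 7 matrix metalloproteinases (MMPs), *Mmp8*, *Mmp9*, *Mmp12*, *Mmp13*, *Mmp14*, *Mmp19* and *Mmp27*, and 3 tissue inhibitors of metalloproteinases (TIMPs), *Timp1*, *Timp2* and *Timp3*. They were taken by gene symbol from a count table of 40481 genes, and all 10 were found in it. RNA had been sequenced, after poly(A) selection, from unstimulated bone marrow-derived macrophages (BMDMs), which are marrow cells cultured into macrophages with medium conditioned by CMG cells. The 3 libraries labelled WT came from wild-type mice and the 3 labelled Scd2-KO from *Scd2*-m/-m mice, in which floxed *Scd2* alleles were combined with the lysozyme M-Cre transgene, and the comparison asks how the loss of this stearoyl-CoA desaturase in myeloid cells bears on macrophage transcripts. Lysozyme M-Cre acts in cells of the myelomonocytic lineage, so each culture can hold cells in which deletion was incomplete. The study used male and female mice a few months old. The age and sex of the donors of each library, and whether replicates were separate mice or cultures, were not given in the sources used here, so p-values measure only the spread between these samples, which may be technical.

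MMPs are zinc-dependent endopeptidases that cut collagens, elastin, laminins and other proteins outside the cell. Most are secreted as inactive precursors and become active when the propeptide is removed, and a few, such as Mmp14, are anchored in the plasma membrane. TIMPs bind the active site of MMPs and block it. Macrophages are known for the elastase Mmp12 and the gelatinase Mmp9, and Mmp14 together with Timp2 activates the precursor of Mmp2 at the cell surface.

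Library totals ranged from 46285176 to 57629638 counts, and levels are given in CPM, a gene's counts after scaling to library size with edgeR. For *Scd2* itself the wild-type replicates 1, 2 and 3 read 66.9, 77.8 and 62.7 CPM, against 59.5, 38.0 and 39.8 CPM in replicates 1, 2 and 3 labelled Scd2-KO, and the log2 fold change was −0.59 (standard error 0.19, FDR = 0.10), which did not pass the test. These counts are of the whole gene, not of its deleted part. By qPCR, the study reported *Scd2* transcript far below the wild-type level in *Scd2*-m/-m BMDMs. The calls of members given here were the same without *Scd2*-m/-m replicate 1, the one nearest to wild type. Macrophage markers were abundant in every library, with a sum over 8 genes of 37461 to 38369 CPM for wild type against 21448 to 21968 CPM for *Scd2*-m/-m. Of the 8, *Cd68* was higher, and *Csf1r*, *Adgre1*, *Mertk* and *Lyz2*, the gene of lysozyme M, were lower. Without *Lyz2* the sums were 15141 to 15362 CPM and 12513 to 12914 CPM. Their part in the differences given here was not tested, and in RNA from whole cultures fewer cells of a type and less RNA per cell cannot be told apart. Whether the wild-type mice carried lysozyme M-Cre was not given in the sources used here. An effect of the transgene, on *Lyz2* or other genes, therefore cannot be separated from that of *Scd2* loss.

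Of the 9 genes tested, *Mmp9* and *Mmp14* were lower and *Mmp12* was higher in *Scd2*-m/-m BMDMs, and the other 6 were not called at a false discovery rate (FDR) below 0.05 in edgeR's quasi-likelihood test. Over all 14778 genes tested, 17.5% were called, 9.65% higher and 7.84% lower. Among the 8192 of them with a mean level of at least 10 CPM, which include 6 of the 9, the share called was 21.4%. *Timp3* was too low to be tested. None of the 9 reached the study's additional threshold of a log2 fold change above 2 in size, which 0.663% of all tested genes passed together with the FDR. The median log2 fold change of the 9 was 0.12, against 0.0039 over all genes tested.

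The sequences before the transcription starts are shown for *Mmp12*, which was higher, for *Mmp13*, its neighbour on chromosome 9 that was not called, and for *Mmp14*, which was lower, to set beside those values. Promoter sequences from RefSeq (GRCm38.p6) matched 8 of the 10 members, all but *Mmp9* and *Mmp19*. Each line holds the 250 bases before the RefSeq start, plus strand, 5′ to 3′. Capitals mark matches to the motifs described after them. The regions are chr9:7344147-7344396 for *Mmp12*, chr9:7272264-7272513 for *Mmp13* and chr14:54431348-54431597 for *Mmp14*.
Mmp12: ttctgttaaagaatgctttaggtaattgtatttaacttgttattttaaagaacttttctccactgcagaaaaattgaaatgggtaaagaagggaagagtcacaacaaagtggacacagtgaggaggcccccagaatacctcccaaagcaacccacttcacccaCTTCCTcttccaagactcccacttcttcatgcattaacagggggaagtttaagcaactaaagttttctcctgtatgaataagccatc
Mmp13: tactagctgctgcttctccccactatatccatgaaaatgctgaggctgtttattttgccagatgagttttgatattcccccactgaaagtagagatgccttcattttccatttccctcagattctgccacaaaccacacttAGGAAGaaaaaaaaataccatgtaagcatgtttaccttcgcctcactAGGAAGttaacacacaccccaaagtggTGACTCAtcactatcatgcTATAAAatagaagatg
Mmp14: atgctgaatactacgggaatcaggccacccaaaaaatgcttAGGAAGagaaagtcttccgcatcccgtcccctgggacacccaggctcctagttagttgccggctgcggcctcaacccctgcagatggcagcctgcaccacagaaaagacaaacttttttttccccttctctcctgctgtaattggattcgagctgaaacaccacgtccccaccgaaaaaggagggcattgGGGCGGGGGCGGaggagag

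Each of the 8 sequences was searched for 5 motifs, on both strands except for the TATA motif, which was read on the strand of the gene. These were the AP-1 site TGAGTCA, the Ets core AGGAAG, the TATA motif TATAAA, the GC box GGGCGG and the E-box CACGTG. The AP-1 letters were in 1 of the 8, in *Mmp13*, at 35 to 29 bases before the start on the minus strand, and in 4.43% of all 27025 promoters of the same length. *Mmp13* was also the member with TATAAA, at 16 to 11 bases before the start, which 8.12% of all promoters held. The Ets letters were in 6 of the 8 and in 29.2% of all promoters. In *Mmp12* they were at 87 to 82 bases on the minus strand, in *Mmp14* at 209 to 204 bases, and in *Mmp13* at 109 to 104 and 62 to 57 bases, both on the plus strand. GC boxes were in 4 of the 8 and in 32.9% of all promoters, with 2 in *Mmp14*, at 19 to 14 and 13 to 8 bases, and 1 each in *Timp1*, *Timp2* and *Timp3*. The letters CACGTG, which 6.05% of all promoters held, were in none of the 8. The GC content of the 4 promoters on chromosome 9 was 38.8% in *Mmp27*, 40.0% in *Mmp12*, 40.4% in *Mmp13* and 44.8% in *Mmp8*, below the median of 52.0% over all promoters. It was 54.4% in *Timp1*, 55.2% in *Mmp14*, 65.6% in *Timp3* and 68.0% in *Timp2*. A match is a description of letters, not of a bound site.

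*Mmp9* (chr2:164940780-164955850, plus strand, GRCm38), gelatinase B, which degrades denatured collagen and type IV collagen of basement membranes, had the largest fall of the 9. The wild-type replicates 1, 2 and 3 held 41.2, 59.0 and 54.0 CPM, and the *Scd2*-m/-m replicates 1, 2 and 3 held 17.5, 15.8 and 16.8 CPM. The genotypes did not overlap, and the wild-type libraries varied more among themselves. The mean of 51.4 ± 9.17 CPM fell to 16.7 ± 0.857 CPM (SD, n = 3 each), which is 32.5% of the wild-type mean, and the log2 fold change was −1.62 (standard error 0.12, 95% interval −1.88 to −1.36, FDR = 7.07e-06, edgeR).

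*Mmp14* (chr14:54431612-54445364, plus strand) encodes a membrane-anchored collagenase that also activates the precursor of Mmp2. It had 85.8, 92.2 and 83.4 CPM in the wild-type libraries against 42.4, 38.0 and 40.8 CPM in the *Scd2*-m/-m ones. The gap between the genotypes was wider than the range within either of them. The mean went from 87.1 ± 4.54 to 40.4 ± 2.22 CPM (SD, n = 3 each), to 46.3% of the wild-type mean, and the log2 fold change was −1.11 (standard error 0.07, 95% interval −1.25 to −0.97, FDR = 1.32e-07, edgeR).

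*Mmp12* (chr9:7344381-7369499, plus strand), macrophage elastase, moved the other way. It had 17.0, 18.0 and 16.9 CPM in the wild-type libraries against 24.4, 31.0 and 30.4 CPM in the *Scd2*-m/-m ones. The genotypes did not overlap, and *Scd2*-m/-m replicate 1 was the lowest of its 3. The mean rose from 17.3 ± 0.636 to 28.6 ± 3.64 CPM (SD, n = 3 each), to 165% of the wild-type mean, and the log2 fold change was 0.73 (standard error 0.09, 95% interval 0.53 to 0.92, FDR = 9.19e-05, edgeR). Its exons share 157 bases with *Mmp1b* on the other strand, which had 0 counts in all 6 libraries.

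**Figure D1:**
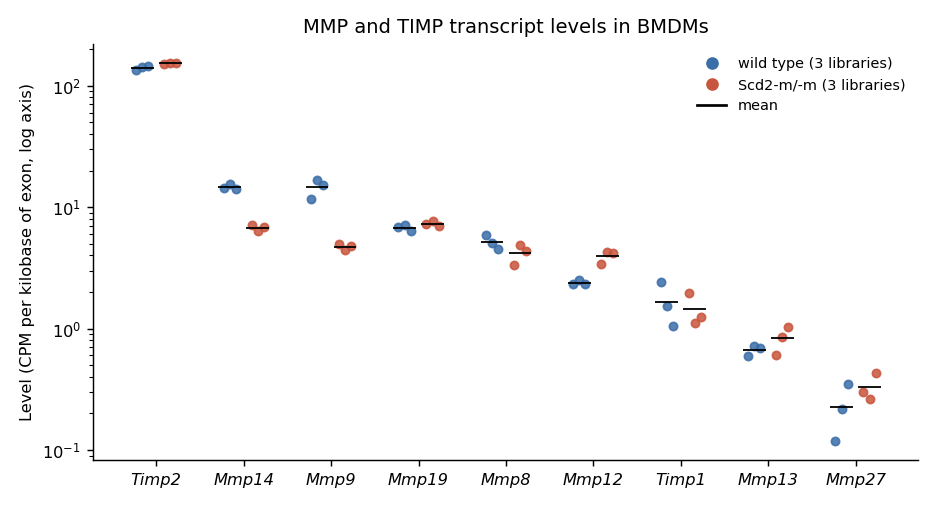
Level of 9 of the 10 genes in each library, in CPM per kilobase of exon on a log axis, with wild-type and *Scd2*-m/-m libraries as points in separate colours and a bar at each mean, leaving out *Timp3*, whose counts were 10 or fewer. The genotypes are apart in *Mmp9*, *Mmp12*, *Mmp14* and *Timp2*, and their points mix or touch in the other 5.

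The other 4 MMPs were not called. *Mmp19* (chr10:128790910-128800824), which cuts components of basement membranes, had 24.1, 25.1 and 22.4 CPM in the wild-type libraries against 25.7, 27.0 and 24.8 CPM in the *Scd2*-m/-m ones. The genotypes overlapped, and the interval of the log2 fold change, −0.04 to 0.27 around 0.12, leaves a rise above 0.27 outside it (FDR = 0.292). *Mmp19* shares 789 exon bases with *Tmem198b* and 212 with *Gm47093*, both on the other strand, and whether reads were counted by strand was not given in the sources used here.

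*Mmp8* (chr9:7558456-7568485), the neutrophil collagenase, had 14.3, 12.3 and 11.0 CPM in the wild-type libraries against 8.12, 11.8 and 10.5 CPM in the *Scd2*-m/-m ones. *Scd2*-m/-m replicate 1 was the lowest of the 6, and the other libraries of the genotypes overlapped. The log2 fold change was −0.31 (standard error 0.13, 95% interval −0.60 to −0.014, FDR = 0.146). With every detected gene tested, it was −0.30 with an FDR of 0.0292. *Mmp8* itself passed each filter on low counts, so the call depends on which other genes entered the fit.

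*Mmp13* (chr9:7272514-7283331), collagenase 3, had 1.59, 1.93 and 1.85 CPM in the wild-type libraries against 1.63, 2.29 and 2.75 CPM in the *Scd2*-m/-m ones, with a log2 fold change of 0.31 (95% interval −0.14 to 0.77, FDR = 0.351). *Mmp27* (chr9:7571396-7581885) was low, with 13, 22 and 39 counts in the wild-type libraries against 37, 29 and 55 in the *Scd2*-m/-m ones, and a log2 fold change of 0.54 (95% interval −0.29 to 1.37, FDR = 0.384). The libraries of the genotypes overlapped in both genes, and both intervals hold 0 as well as rises of more than 0.5 on the log2 scale.

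Among the inhibitors, *Timp2* (chr11:118301069-118355740, minus strand) was by far the most abundant. It had 520, 559 and 561 CPM in the wild-type libraries against 588, 600 and 593 CPM in the *Scd2*-m/-m ones. The libraries did not overlap, as in 4 of the 9 genes tested and in 34.9% of all genes tested, but the difference did not pass the test. The mean was 547 ± 23.1 CPM for wild type against 594 ± 5.78 CPM for *Scd2*-m/-m (SD, n = 3 each), and the log2 fold change was 0.12 (standard error 0.06, 95% interval −0.011 to 0.25, FDR = 0.203). *Timp2* overlaps *Cep295nl*, which lies within it, without sharing exon bases.

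*Timp1* (chrX:20870166-20874735), which is known to be induced by cytokines in many cells, had 2.14, 1.37 and 0.925 CPM in the wild-type libraries against 1.74, 0.995 and 1.10 CPM in the *Scd2*-m/-m ones. Replicate 1 was the highest in both genotypes, and the genotypes overlapped. The log2 fold change was −0.20 (95% interval −0.87 to 0.46, FDR = 0.710) and was 0.16 without wild-type replicate 1. *Timp1* lies within the span of *Syn1*, which is on the other strand and shares no exon bases with it. *Syn1*, a synaptic vesicle protein gene, went from 59.0 ± 5.64 to 49.6 ± 2.08 CPM (log2 fold change −0.25, FDR = 0.0303).

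*Timp3* (chr10:86300372-86349506), the TIMP that binds to the matrix, had 1, 3 and 0 counts in wild-type libraries and 10, 4 and 8 counts in *Scd2*-m/-m libraries. Over the genotypes this was 4 against 22 counts, a ratio of CPM of 4.91 with a 95% interval of 1.67 to 19.6 (Clopper-Pearson). The interval leaves out variation between libraries and treats every count as an independent event, which may not hold for these counts. If a molecule could add more than 1 count, the interval is too narrow even for counting error. With every detected gene tested, the log2 fold change was 2.17 with an FDR of 0.263. *Timp3* shares 1733 exon bases with *Syn3* on the other strand.

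**Figure D2:**
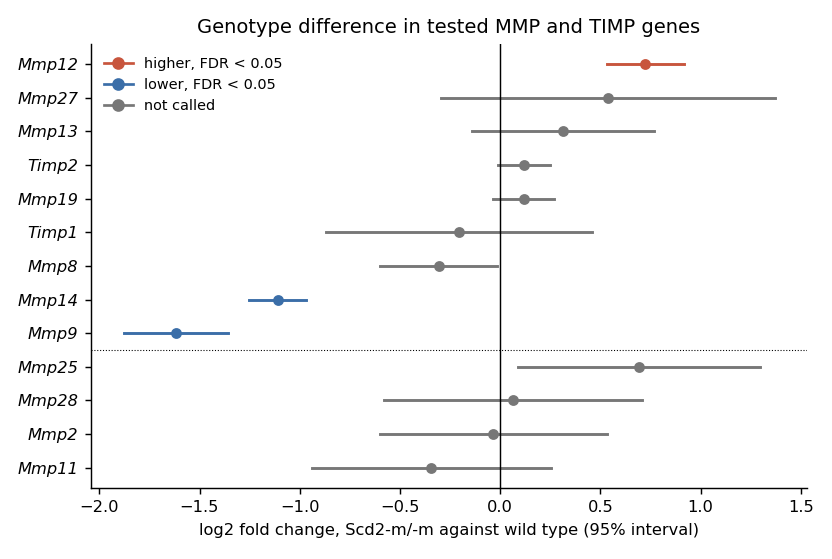
Log2 fold change of *Scd2*-m/-m against wild-type BMDMs for the 9 tested members (above the dotted line) and for 4 other tested MMP genes (under it), with 95% intervals, coloured by direction where the FDR was below 0.05. *Mmp12* lies at 0.73, *Mmp14* at −1.11 and *Mmp9* at −1.62, while the interval of *Mmp8* ends just under 0 and that of *Mmp25* begins just above it.

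Levels of different genes were compared per kilobase of exon. On that scale (CPM per kilobase) *Timp2* led in both genotypes, with 140 ± 5.92 for wild type against 152 ± 1.48 for *Scd2*-m/-m. In wild-type BMDMs it was followed by *Mmp14* (14.6 ± 0.762) and *Mmp9* (14.5 ± 2.59), whose libraries overlapped, then *Mmp19* (6.74 ± 0.388), *Mmp8* (5.17 ± 0.682), *Mmp12* (2.39 ± 0.0878), *Timp1* (1.66 ± 0.690), *Mmp13* (0.670 ± 0.0661) and *Mmp27* (0.227 ± 0.115). Besides the first pair, only *Mmp12* and *Timp1* overlapped among neighbours in this order. In *Scd2*-m/-m BMDMs *Mmp19* (7.32 ± 0.302) stood before *Mmp14* (6.77 ± 0.373), and these 2 overlapped. *Mmp9* (4.72 ± 0.242), *Mmp8* (4.18 ± 0.770) and *Mmp12* (3.95 ± 0.503) came next. *Mmp8* overlapped both of the others, while every *Mmp9* library stayed above every *Mmp12* library. *Timp1* (1.44 ± 0.453), *Mmp13* (0.832 ± 0.211) and *Mmp27* (0.330 ± 0.0874) followed without overlap. This order rests on exon length merged over transcripts, 7237 bases in *Mmp12* and 5960 in *Mmp14*. Their longest coding transcripts have 3607 and 3238 bases. In *Mmp9* (3539 and 3175) and *Mmp19* (3533 and 3402) the lengths were closer. Per base of longest transcript, the mean of *Mmp12* would pass those of *Mmp8*, *Mmp9* and *Mmp19* in *Scd2*-m/-m BMDMs. *Mmp14* would pass *Mmp19* there, and in wild-type BMDMs it would stand above *Mmp9* without overlap. The order thus depends on the length used.

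Summed over the 7 MMPs, the level was 41.8, 47.7 and 43.5 CPM per kilobase in the wild-type libraries against 27.0, 28.7 and 28.6 in the *Scd2*-m/-m ones. Summed over the 3 TIMPs, it was 136, 145 and 145 against 153, 155 and 154. The MMP sum was thus lower and the TIMP sum higher in every *Scd2*-m/-m library. The transcript ratio of TIMPs to MMPs was 3.25, 3.04 and 3.34 in the wild-type libraries against 5.67, 5.40 and 5.36 in the *Scd2*-m/-m ones, a difference of 0.77 on the log2 scale. The exact two-sided permutation test gave p = 0.1 (0.1 after adjustment over 8 ratios and sums), the smallest that 3 libraries against 3 allow, so this design cannot reach 0.05. *Timp2* made up 98.8% ± 0.537 of the TIMP sum for wild type against 99.1% ± 0.304 for *Scd2*-m/-m (SD, n = 3 each), so the ratio is in effect that of *Timp2* to the MMPs. It compares transcripts, not proteins or their activity, and its size depends on the exon lengths used.

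The makeup of the MMP sum differed between the genotypes. *Mmp9* took 32.6% ± 4.13 of it in wild-type BMDMs against 16.8% ± 1.42 in the *Scd2*-m/-m ones, and *Mmp14* took 33.0% ± 1.24 and 24.1% ± 2.09 (SD, n = 3 each). The share of *Mmp12* was 5.40% ± 0.198 and 14.0% ± 1.32, and that of *Mmp19*, whose own level did not pass the test, was 15.2% ± 0.930 and 26.0% ± 1.31. Shares add up to a whole, so a member's share can rise while its level does not. The shares also depend on the exon lengths used. For these 4 the libraries did not overlap (exact permutation test, p = 0.1 each, 0.143 adjusted over the 10 shares). For *Mmp8*, with 11.7% ± 2.06 and 14.8% ± 2.28, they did (p = 0.2, adjusted 0.25, exact permutation test).

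**Figure D3:**
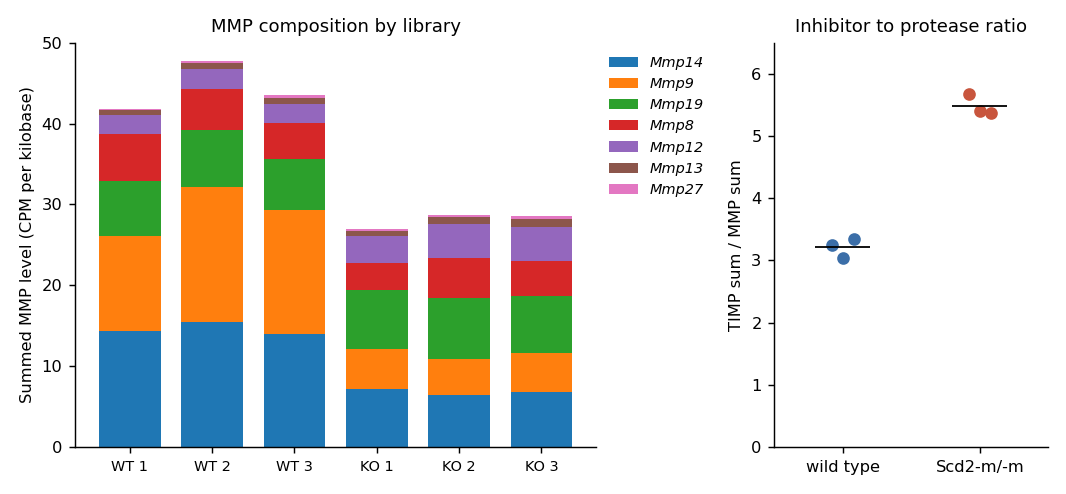
Levels per kilobase of exon of the 7 MMPs, stacked for each library, and the ratio of the summed TIMP level to the summed MMP level in each library. The stacks reach 41.8 to 47.7 CPM per kilobase for wild type (WT) against 27.0 to 28.7 for *Scd2*-m/-m (KO), and the ratio lies between 3.04 and 3.34 and between 5.36 and 5.67.

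*Mmp8*, *Mmp12*, *Mmp13* and *Mmp27* lie in a cluster of MMP genes on chromosome 9 (chr9:7272514-7699585). This stretch of 427 kb holds 13 annotated genes, of which 10 are MMP genes, in the order *Mmp13*, *Mmp12*, *Mmp1b*, *Mmp3*, *Mmp1a*, *Mmp10*, *Mmp8*, *Mmp27*, *Mmp20* and *Mmp7*. Only these 4 of the 10 had enough counts to be tested, and only *Mmp12* was called, although *Mmp13* lies next to it. The others had at most 10 counts in any library. Next to the cluster, *Dcun1d5* before *Mmp13* was not called (log2 fold change 0.19, FDR = 0.139). After *Mmp7*, *Gm10709* was not called (0.66, FDR = 0.0561) and *Tmem123* was lower (−0.20, FDR = 0.0482).

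**Figure D4:**
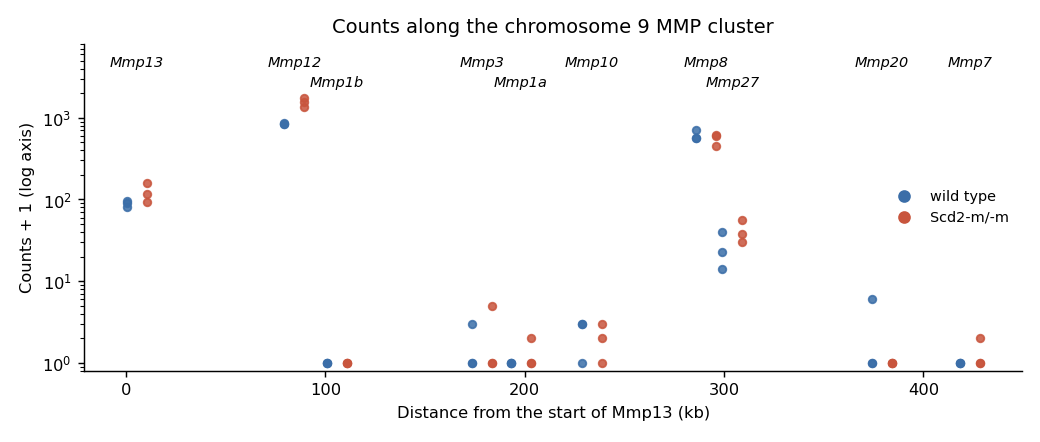
Counts in each library (plus 1, log axis) of the 10 MMP genes in the chromosome 9 cluster, against the distance of each gene's middle from the start of *Mmp13* in kb. Points of the genotypes are set 5 kb to either side of the gene, and 4 genes, *Mmp13*, *Mmp12*, *Mmp8* and *Mmp27*, stand above the rest.

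The 17 other MMP and TIMP genes were low. Of these, *Mmp2*, *Mmp11*, *Mmp25* and *Mmp28* passed the filter on low counts, at 0.675 to 1.18 CPM on average per genotype, and 0 were called by edgeR. At an unadjusted p below 0.05 there was 1, *Mmp25*, a membrane-anchored MMP of leukocytes. It had 37, 22 and 48 counts in the wild-type libraries against 62, 67 and 63 in the *Scd2*-m/-m ones, without overlap, and a log2 fold change of 0.69 (standard error 0.28, 95% interval 0.09 to 1.30, FDR = 0.112). Limma-voom with quality weights called it (log2 fold change 1.03, FDR = 0.00993). *Mmp2*, the substrate of Mmp14, had 0.935 ± 0.0422 CPM against 0.912 ± 0.213 CPM (wild type first, FDR = 0.951). The other 13 had at most 10 counts in any library and were not tested.

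Transcripts of other cell types were measured beside these values. Over all genes tested 17.5% were called, to set beside the called markers given here. Mmp8, Mmp9 and Mmp25 are stored in neutrophil granules, and of 16 neutrophil markers 11 were tested, 7 of them higher (*Mpo*, *Prtn3*, *Ngp*, *Ltf*, *Lcn2*, *S100a8* and *S100a9*) and 1, *Csf3r*, lower in *Scd2*-m/-m BMDMs. Their summed level was 172 to 182 CPM for wild type against 160 to 190 CPM for *Scd2*-m/-m, most of it *Csf3r*. Without *Csf3r* it was 13.6 to 14.8 and 33.0 to 41.5 CPM. *Ly6g*, which marks mature neutrophils, had 0 counts in the wild-type libraries against 2, 0 and 2 in the *Scd2*-m/-m ones. The part of such cells in the values of *Mmp8*, *Mmp9* and *Mmp25* was not tested. Osteoclasts also express *Mmp9* and *Mmp14*. Of 10 osteoclast markers 8 were tested, with *Ctsk* and *Atp6v0d2* higher and *Tnfrsf11a* lower, the sums were 355 to 399 and 353 to 373 CPM, and *Calcr* had 0 counts in all libraries. Of 11 fibroblast markers 5 were tested and 0 were called, with sums of 4.66 to 7.60 and 5.84 to 6.39 CPM. Of 8 endothelial markers *Vwf* was higher and *Pecam1* lower, with sums of 49.8 to 56.2 and 75.4 to 93.3 CPM, and *Cldn5* had 0 counts. Without *Vwf* the sums were 10.1 to 10.5 and 9.91 to 10.6 CPM. Of 8 dendritic cell markers *Flt3* and *Ccr7* were higher, with sums of 3.04 to 4.64 and 4.22 to 5.52 CPM. The part of these cells in the results was not tested either.

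The genes whose levels followed those of the 3 called members most closely over the 6 libraries were found from the root mean square difference of log2 CPM, each gene centred on its own mean. Nearest to *Mmp9* were *Siglece*, a sialic acid-binding receptor (0.123), *Thbs1*, the matricellular protein thrombospondin-1 (0.141), and *Pilrb1*, an activating paired receptor (0.161). Nearest to *Mmp14* were *Trib1*, a pseudokinase (0.0599), *Pilra*, an inhibitory paired receptor (0.0822), and *Pecam1*, an adhesion molecule (0.0982). Nearest to *Mmp12* were *Fignl1* (0.0634), *Cdc14b* (0.0736) and *Adgrg3* (0.0749), and 16 genes lay within 0.1 of it, against 3 for *Mmp14* and 0 for *Mmp9*. *Adgrg3* itself was not called (0.205 against 0.396 CPM, FDR = 0.124). The points share the genotype difference, so any gene with a fold change of like size comes near.

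The surroundings of MMP action were described with 6 lists of genes for other proteases, partners, substrates and regulators. Of 168 genes, with the 17 other MMP and TIMP genes counted in, 92 were tested, 18 were higher and 14 lower. That is 34.8% called, against 17.5% of all genes tested and 21.4% of those with a mean of at least 10 CPM. The lists were written with earlier results of these data known, so these shares are not a test of the lists. The 57 genes of the ADAM and ADAMTS families include related metalloproteinases, shedding enzymes and ADAMTS-like genes, and not all encode active proteases. Of these, 18 were tested, with 3 higher, 1 lower and a median of 0.09 on the log2 scale. *Adam19* went from 26.6 ± 7.04 to 12.9 ± 1.97 CPM (log2 fold change −1.04, FDR = 0.0268), and *Adamtsl5* from 8.60 ± 0.901 to 15.3 ± 1.61 CPM (0.83, FDR = 0.000109). *Adamtsl4*, like *Adamtsl5* an ADAMTS-like gene, was also higher (0.63, FDR = 0.00293). *Adam11* had 0 counts in every wild-type library and 12, 11 and 15 counts in *Scd2*-m/-m libraries.

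Plasminogen activation produces plasmin, which can remove MMP propeptides. Of its 7 tested genes, *S100a10* (65.5 ± 5.93 to 97.8 ± 5.53 CPM, log2 fold change 0.58, FDR = 9.69e-05) and *Anxa2* (286 ± 32.3 to 414 ± 50.4 CPM, 0.54, FDR = 0.00263) were higher. Both encode parts of a surface complex that binds plasminogen. The genes of urokinase, *Plau* (0.12), and its receptor, *Plaur* (−0.33, FDR = 0.0887), were not called, and the median of the list was 0.12. Of 10 tested genes for processing and surface partners of MMPs, *Lcn2*, whose product binds Mmp9, was higher (2.30 ± 0.120 to 5.36 ± 0.651 CPM, 1.22, FDR = 6.53e-05). *Cd44*, a surface receptor that can hold Mmp9 and Mmp14, was lower (−0.29, FDR = 0.0202), as was the tetraspanin gene *Cd151* (−0.25, FDR = 0.0384). *Reck*, a membrane-anchored MMP inhibitor, was not called (0.63, FDR = 0.222). The median of this list was 0.0065.

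Cathepsins and their cystatin inhibitors are the lysosomal counterpart. Of 16 tested, 6 were higher and 1 was lower, and the median was 0.20 on the log2 scale. The largest rises were of *Cst7* (0.437 ± 0.0849 to 1.20 ± 0.139 CPM, 1.45, FDR = 0.00268), an inhibitor of cathepsins, and *Ctse* (3.49 ± 0.327 to 8.33 ± 0.565 CPM, 1.26, FDR = 1.05e-05). *Ctsk*, a collagen-degrading cathepsin (0.45), *Ctsd* (0.35), *Ctsb* (0.33) and *Cstb* (0.24) were higher by less, and *Ctsc*, which activates neutrophil serine proteases, was lower (−0.28, FDR = 0.0163).

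Of 17 tested matrix genes, 4 were higher and 3 lower, with a median of −0.0037. *Spp1*, osteopontin, a substrate of MMPs, went from 559 ± 125 to 1312 ± 132 CPM (1.23, FDR = 0.00180), and *Fbn1* (1.10), *Ecm1* (0.36) and *Lamc1* (0.30) were higher too. *Thbs1* went from 426 ± 24.9 to 148 ± 11.1 CPM (−1.53, FDR = 1.15e-08), and *Col18a1* (−0.83) and *Tgfbi* (−0.44) were lower.

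Transcription factors known to act on MMP promoters were all tested, with 2 of 20 higher and 7 lower and a median of −0.15 on the log2 scale. Of the AP-1 genes, *Fos* (188 ± 40.4 to 113 ± 4.80 CPM, −0.73, FDR = 0.0128) and *Fosl2* (49.9 ± 1.67 to 30.6 ± 0.753 CPM, −0.70, FDR = 4.29e-06) were lower, while *Jun* (0.02) and *Junb* (−0.41, FDR = 0.0505) were not called. Of the Ets family, *Etv5* (−0.68, FDR = 0.000801), *Ets2* (−0.51, FDR = 0.000114) and *Spi1* (−0.23, FDR = 0.0323) were lower. *Nfkb1* (−0.38, FDR = 0.000386) was lower as well. *Runx2* (0.81, FDR = 0.0120) and *Mitf* (0.20, FDR = 0.0359) were higher. Whether any of these acts on a member was not tested.

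**Figure D5:**
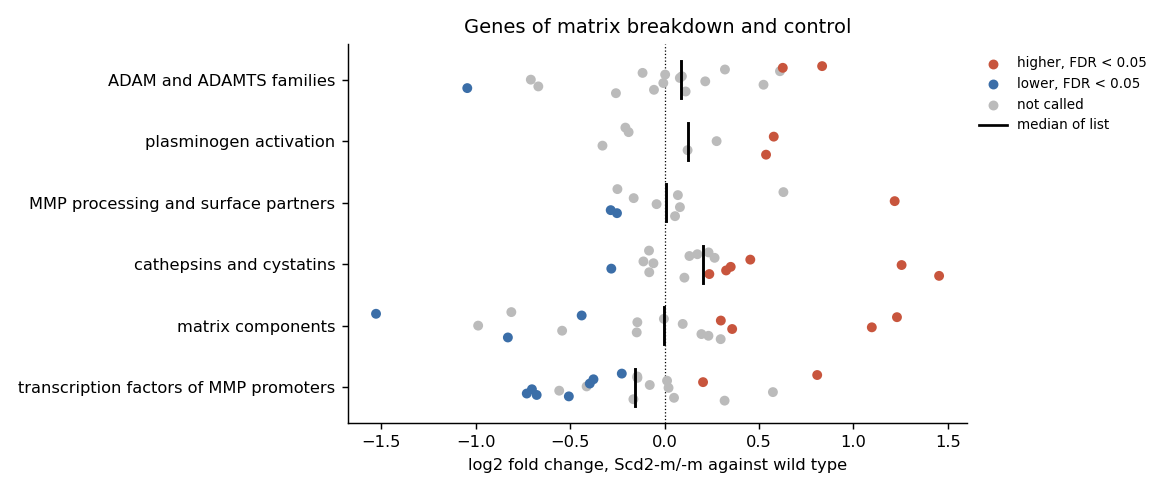
Log2 fold change of each tested gene in the 6 lists, with a black line at each list's median, coloured by direction where the FDR was below 0.05, leaving out *Adam11*, which had 0 counts in wild-type BMDMs. Called genes lie on both sides of 0 in every list but plasminogen activation, and 7 of the 9 called transcription factor genes lie below 0.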

How the data were processed

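RNA-seq of 3 wild-type and 3 *Scd2*-m/-m BMDM samples was used, 1 library each, grouped by the genotype label. The authors deposited raw counts per gene, whole numbers with no scaling, from reads aligned by STAR to GRCm38 (Ensembl primary assembly). The counting tool and its use of strand were not given in the sources used here. Their own comparison table, made with edgeR and limma, holds fold changes, p-values and 6 columns of log2 values per sample and was not used.

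Of 40757 entries, 276 repeats of a gene were removed, leaving 40481 genes. The 14778 genes passing filterByExpr were compared with edgeR 4.0.16 (TMM, robust glmQLFit, glmQLFTest, on R 4.3.3 with limma 3.58.1 and statmod 1.5.0), with Benjamini-Hochberg adjustment over all of them (FDR, threshold 0.05). CPM are counts over TMM-scaled library sizes (factors 0.979 to 1.02), and levels per kilobase divide by the merged exon length in GENCODE M21 (GRCm38), whose coordinates are given. Single values per library were compared with an exact two-sided permutation test (scipy 1.17.1). No pair of replicates looked like 1 library deposited again (chi-square 10.4 to 31.9 per gene), which does not show that they were biologically separate. Among counts of 1 to 20, 60.9% to 64.9% were even, but the meaning of 1 count was not given in the sources used here. Every library total was above the average number of reads per sample that the study reported. Counts may therefore not be independent, and low counts may rest on fewer molecules than they read. With 46285176 to 57629638 counts per library, genes below 1 CPM rest on few counts.

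On simulated counts for these 14778 genes (3 against 3 libraries, 200 changed, 5 draws), the test called 60.2% of genes changed by 0.5 on the log2 scale, 80.0% at 1 and 97.0% at 2, with 4.73% false calls. Each simulated gene had the spread that edgeR's trend gives for its level, not its own. Fewer genes were changed than were called in the data, so these rates need not hold for the data. Alternatives were RLE and upper-quartile factors, limma-voom, also with quality weights, DESeq2 1.42.0, a looser and a stricter count filter, halved counts, a replicate block and leaving out each library. Pair ratios were added after the data were seen.

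Named genes are all members, other MMP or TIMP genes that were called or had the highest level, up to 5 called genes in each direction with the smallest p in each list, the 3 genes closest in pattern to each called member, genes of the chromosome 9 cluster, overlapping genes, *Scd2* and markers. *Ctsk*, *Fos*, *Spi1*, *Reck*, *Plau*, *Plaur*, *Jun*, *Junb*, *Dcun1d5*, *Gm10709* and *Tmem123* fall outside this rule, having been picked once their values were known. 1 called gene of the lists is not reported here by name. Members and lists were chosen with earlier results of these data known.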

Additional observations from a re-analysis of the deposited data

How the results depend on the processing

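Of the 10 members, *Mmp9*, *Mmp12* and *Mmp14* were called, in the same direction, in all 15 alternative settings, with log2 fold changes of −1.76 to −1.51, 0.67 to 0.83 and −1.19 to −1.07. Without wild-type replicate 1 the log2 fold change of *Timp1* reversed to 0.16 (−0.49 to 0.16 over the left-out libraries, FDR of 0.332 or more in all settings). *Mmp8* was called only with every detected gene tested. The pathway lists had 32 called genes, 49 with limma-voom with quality weights and 23 to 36 when a library was left out. By list, that tool called 9 ADAM and ADAMTS genes rather than 4 and 4 plasminogen genes rather than 2, and the block, the looser filter and leaving out wild-type replicate 3 also gave 4 of the latter. The partners had 1 called gene rather than 3 without wild-type replicate 1 or 2 or *Scd2*-m/-m replicate 2 or 3, and the cathepsins 4 rather than 7 without replicate 2 of either genotype. The cause was not tested. Over all genes, 2585 were called, 4507 with quality weights, 1490 without wild-type replicate 2 and 1440 without *Scd2*-m/-m replicate 2.

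The log2 difference of the TIMP to MMP ratio, 0.77, was 0.73 to 0.80 when a library was left out, 0.59 without *Mmp14* and 0.50 without *Timp2*, where the libraries overlapped (exact permutation test, p = 0.4). The difference was also 0.77 with the longest coding transcript as the length of each gene.

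Whether the replicate numbers pair the samples was not settled. Same-numbered samples had correlations of 0.053, −0.020 and 0.040 in their deviations from the genotype means, and not every sample correlated best with its own number. Correlations over all genes cannot exclude a pairing that acts on some of them. With the replicate number as a block, 3 members, 39 list genes and 2974 of all genes were called, against 3, 32 and 2585 without it. At this depth *Timp3* and 13 other genes of the family had too few counts to pass the filter.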

Other observations

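Ratios between pairs of members, on the scale per kilobase of exon, were chosen after the data were seen and are given as values. *Timp2* to *Mmp14*, partners in the activation of the Mmp2 precursor, was 9.62 ± 0.587 for wild type against 22.6 ± 1.48 for *Scd2*-m/-m (SD, n = 3 each), and *Timp2* to *Mmp9* was 9.85 ± 1.47 and 32.3 ± 1.99. *Mmp9* to *Mmp14* was 0.992 ± 0.159 and 0.697 ± 0.00406, so the fall of *Mmp9* was larger than that of *Mmp14* by 0.50 on the log2 scale of the ratio. The size of each ratio depends on the exon lengths used, but its log2 difference between the genotypes does not. *Mmp12* to its neighbour *Mmp13* differed by 0.43 on the log2 scale and *Mmp12* to *Mmp8* by 1.03. The libraries of the genotypes did not overlap in any of these 5 ratios, for which the exact permutation test gives p = 0.1, the smallest that 3 libraries against 3 allow, and 0.1 after adjustment over 8 ratios and sums.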
